A study of Mus musculus with 4 samples.

Results

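The transcripts of the mitotic machinery were examined in cultured mouse macrophages from mice labelled as knockout and as wild type for Hilpda, which encodes a lipid droplet protein. The set holds 40 genes of G2 and mitosis, named by symbol, and 39 of them had a probe set with that single symbol, out of 22180 genes represented on the array. The exception was Ccnb1, which encodes cyclin B1 and was not analysed here. All 39 passed the filter on level, a mean log2 value of at least 2.44 over the arrays, as did 13354 genes in all.

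The cells were bone marrow-derived macrophages from Hilpda ΔMΦ mice (KO) and from littermates carrying the floxed Hilpda allele without deletion, Hilpda flox/flox (WT), aged 8 to 12 weeks. All cultures, those of WT included, had been differentiated in medium conditioned by L929 cells and then received 600 µM of palmitate and oleate, 1 part to 2, on albumin. The 4 groups were KO after 24 h, WT after 24 h, KO after 12 h and WT after 12 h of this loading. Each group was 1 Affymetrix whole-transcript array carrying a pool of RNA from 3 samples. No group without fatty acids is analysed here, so a response to the lipid and time in culture cannot be told apart. The labels do not name the Cre driver. With 1 array per group, no difference between a pair of arrays has a replicate check, and none was tested. Values below are log2 expression levels, a difference of 1 on this scale is 2-fold, and a gene is counted as past the fold rule at a difference of at least 1.5-fold.

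Mitosis is driven by cyclin-dependent kinase 1 bound to cyclins A and B, which are destroyed during mitosis through the anaphase-promoting complex. The genes of this machinery are transcribed together late in the cell cycle. The DREAM complex represses them in resting cells, and MYBL2 and FOXM1, bound to the MuvB core, activate them in G2, through CHR elements and neighbouring CCAAT boxes in the promoters. Macrophages grown from marrow divide in response to CSF1, the growth factor in L929 medium, and leave the cycle as they mature or become activated.

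Pearson correlations between pairs of the 4 arrays lay between 0.984 and 0.988. The targeted gene Hilpda stood at 5.27 in KO and 5.47 in WT at 24 h, and at 5.41 in KO and 5.93 in WT at 12 h. The labels do not give the deleted part of the gene, so its single probe set is a weak check of the genotype. All 11 macrophage markers on the array passed the filter, and their summed level, as log2, was 14.4 in KO and 14.6 in WT at 24 h and 14.4 in both at 12 h. Markers of neutrophils (9 genes) and of mast cells and basophils (4 genes) all failed the level filter. On the array, 2 of 6 progenitor, 1 of 2 erythroid and 4 of 5 dendritic markers passed it. So did 2 of 4 B cell and 2 of 7 T and NK cell markers. The progenitor markers were Kit and Meis1. Kit was at 3.27 in KO and 3.07 in WT at 24 h, and 3.35 in KO and 3.57 in WT at 12 h. Meis1 was at 5.13 in KO and 4.87 in WT at 24 h, and 5.17 in KO and 5.22 in WT at 12 h. The part of progenitors in the results was not tested. Stromal markers were present, and their summed level, as log2, was 9.11 in KO and 9.89 in WT at 24 h, and 8.63 in KO and 9.12 in WT at 12 h. In pooled RNA, fewer dividing cells and less mitotic RNA per dividing cell cannot be told apart.

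The promoter windows of 3 genes that lay past the fold rule between the genotypes at 24 h are shown. They differ in which letters of the CHR and CCAAT elements they hold. Each is the RefSeq window of 300 bases on GRCm38.p6, from 250 bases before to 50 bases after an annotated start, on the plus strand. Capitals mark the CHR letters TTTGAA or TTTAAA and the letters CCAAT, the last also as its complement ATTGG; E2F letters (TTTCGCGC or TTTGGCGC) were searched as well and are absent from all 3. The windows lie at chr7:122159185-122159484 (Plk1), chr1:136467598-136467897 (Kif14) and chr13:51644982-51645281 (Cks2).
Plk1: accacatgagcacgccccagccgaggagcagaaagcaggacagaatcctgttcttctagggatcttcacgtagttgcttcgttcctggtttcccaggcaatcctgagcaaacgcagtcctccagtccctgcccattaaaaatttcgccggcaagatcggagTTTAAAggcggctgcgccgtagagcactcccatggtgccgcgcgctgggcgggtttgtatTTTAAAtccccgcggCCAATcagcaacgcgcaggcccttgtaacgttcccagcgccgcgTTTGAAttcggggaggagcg
Kif14: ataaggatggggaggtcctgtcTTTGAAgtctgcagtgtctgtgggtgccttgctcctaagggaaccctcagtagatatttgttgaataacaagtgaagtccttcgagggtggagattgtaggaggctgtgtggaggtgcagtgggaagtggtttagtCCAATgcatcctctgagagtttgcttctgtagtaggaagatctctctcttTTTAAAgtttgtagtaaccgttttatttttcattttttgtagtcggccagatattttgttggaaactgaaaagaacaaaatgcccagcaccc
Cks2: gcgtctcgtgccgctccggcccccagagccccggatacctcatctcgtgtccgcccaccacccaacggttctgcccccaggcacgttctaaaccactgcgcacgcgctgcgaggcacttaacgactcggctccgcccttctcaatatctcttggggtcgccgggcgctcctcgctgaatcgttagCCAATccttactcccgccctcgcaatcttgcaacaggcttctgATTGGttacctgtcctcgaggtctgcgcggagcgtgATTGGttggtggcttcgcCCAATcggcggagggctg

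The Plk1 window held 3 CHR matches, of which the TTTGAA began at position 31 after the start, and 1 CCAAT match at -14. In Kif14 there were 2 CHR matches and 1 CCAAT match, but this window belongs to a start 1547 bases downstream of the first base of the annotated gene. The Cks2 window held 4 CCAAT matches, at -65, -22, 15 and 33, and no CHR match. Kif20a was also past the fold rule, and its promoter is not shown.

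Of the 40 genes, 34 had a promoter window in the table, Ccnb1 among them. A CHR match on either strand was found in 29 of the 34 (85.3%), against 22.2% of 9950 protein-coding genes past the level filter and 28.2% of all 17492 protein-coding genes with a window. A CCAAT match was found in 25 (73.5%), against 42.3% of the same 9950 genes, and at least 2 such matches in 17 (50%), against 16.1%. CHR and CCAAT letters occurred together in 23 windows (67.6%), against 10.4%. E2F letters, which hold none of the other motifs, were found in 2 windows, those of Cdk1 and Kif15 (5.88%, against 1.79%). The CHR matches lay near the start, with a median position of -17 over 46 matches, against -146 over the 2299 matches in the 9950 genes. For CCAAT the medians were -68 and -87. Melk, Nuf2 and Nusap1 held neither CHR nor CCAAT letters in this window. The shares count the Kif14 window at its downstream start. All of these are matches of letters and no measurement of binding.

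**Figure D1:**
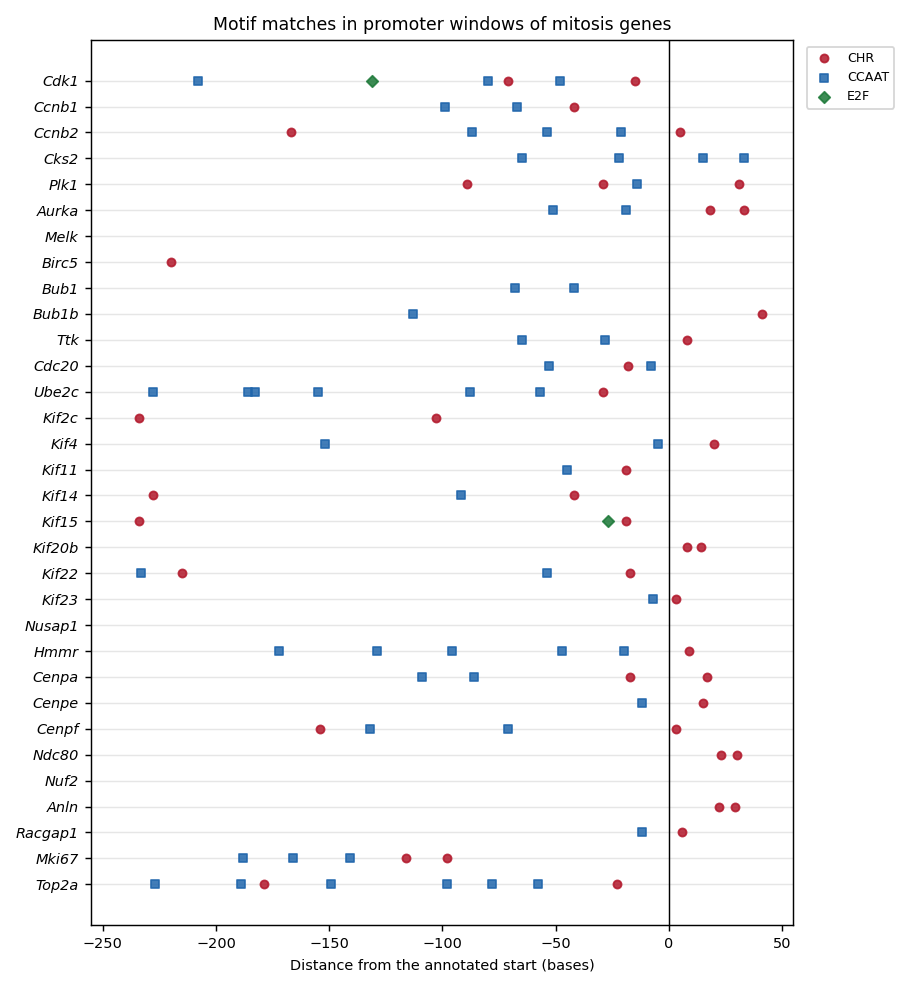
Positions of CHR (circles), CCAAT (squares) and E2F (diamonds) letters, on either strand, in bases from the annotated start, for the 32 genes with a single promoter window. CHR matches gather around the start and CCAAT matches mostly upstream of it, and Cks2 has 4 CCAAT matches and no CHR match.

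Mitosis genes were lower at 24 h than at 12 h in both genotypes. In KO cells 38 of the 39 had a lower level at 24 h, with a median difference of -0.81, a factor of 1.76. In WT cells 38 of 39 were lower as well, with a median of -0.52, a factor of 1.44. Over all 13354 genes the medians were 0.00 in KO and -0.01 in WT, and 49.6% and 50.8% of genes were below 0. Past the fold rule were 25 of 39 genes in KO, where 3.24% of all genes were lower by that much, and 16 of 39 in WT, against 4.01%. No member was higher by 1.5-fold at 24 h in either genotype, against 3.05% of all genes in KO and 4.73% in WT. Both 24 h arrays lay below both 12 h arrays for 35 of the 39 genes, against 22.3% of all genes, and 14 were lower by at least 1.5-fold in both genotypes, against 1.12%. The exceptions to the separation of the times were Cks2, Birc5, Melk and Cenpa.

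**Figure D2:**
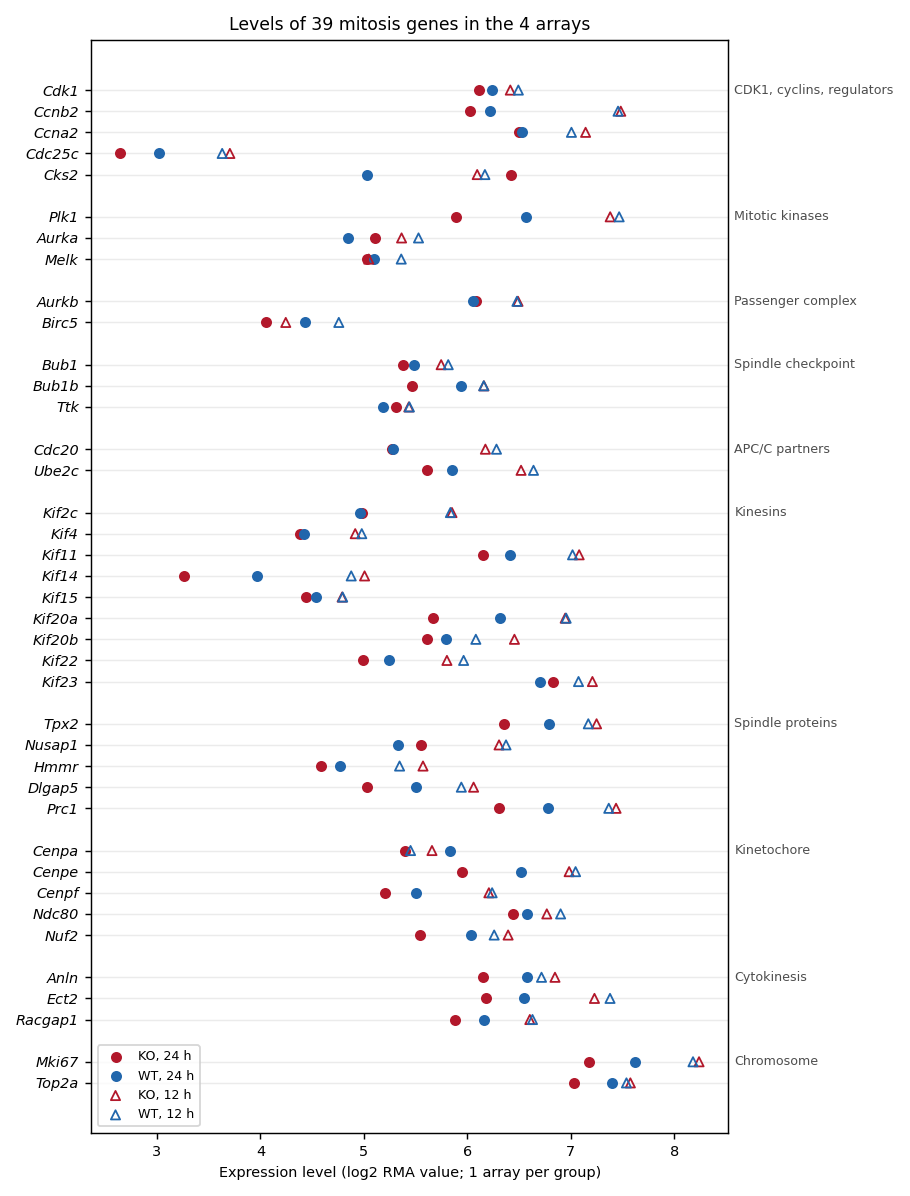
Expression level (log2 RMA value, x axis) of each of 39 mitosis genes in the KO 24 h, WT 24 h, KO 12 h and WT 12 h arrays, 1 array per group, grouped by role. Filled circles (24 h) lie left of open triangles (12 h) for 35 genes, and the KO circle is the leftmost symbol for 32.

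The median level of the 39 genes was 5.61 in KO and 5.85 in WT at 24 h, and 6.39 in KO and 6.28 in WT at 12 h. The KO 24 h array was the lowest of the 4 for 32 members, against 24.1% of all genes, and the WT 24 h array for the other 7, against 30.2%. Neither 12 h array was the lowest for any member. The highest value was in the WT 12 h array for 19 members and in the KO 12 h array for 18, against 22.5% and 23.8% of all genes.

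The difference between the times was larger in KO than in WT for most members. The time difference in KO was the lower of the pair for 28 of 39 genes, against 50.1% of all genes. The 2 time differences use no array in common, and across the members they correlated at r = 0.44 (Spearman's rho 0.54, n = 39), and at 0.65 (rho 0.65) without Cks2. Across all genes kept r was 0.42, and genes share the arrays and are not independent. Over the 39 members the WT 12 h level correlated at r = -0.27 (rho -0.38) with the time difference in KO, and the KO 12 h level at r = -0.11 (rho -0.09) with that in WT.

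The single test of time that the design allowed was a limma fit with terms for time and genotype, with 1 residual degree of freedom. What it takes as error is how far the genotype difference moved between 24 h and 12 h, which is no spread between replicates. In that limma fit 0 of 13354 genes had an adjusted p under 0.05, 1763 (13.2%) had an unadjusted p under 0.05, and 30 of the 39 mitosis genes were among these. The lowest adjusted p of a member in this limma fit was 0.12, for Ccnb2, which equalled the lowest of any gene. With genes at or above the 60th percentile of level the limma fit called 114 of 9089 genes. Of the 38 members in that fit 5 were called, all lower at 24 h. With each array centred on its median the limma fit called 44 of 13354 genes, and 1 of the 39 members.

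At 24 h most mitosis genes were somewhat lower in KO than in WT cells, and at 12 h the genotypes were close. At 24 h, 32 of 39 genes were below 0, against 49% of all genes, and the median difference was -0.25, a factor of 1.19. Plk1, Kif14 and Kif20a were lower by at least 1.5-fold, 3 of 39 genes against 3.5% of all genes. Cks2 alone was higher by that much, against 2.97%. At 12 h, 20 genes were below 0, against 49.4%, the median was 0.00, and no member was past the fold rule, which 1.4% of genes passed as lower and 1.5% as higher. By role, the medians at 24 h were -0.43 for spindle proteins, -0.43 for kinetochore genes, -0.41 for the pair of chromosome genes and -0.37 for cytokinesis genes. They were nearer 0 for the kinesins (-0.18), the passenger complex (-0.17), the partners of the anaphase-promoting complex (-0.13), the CDK1 group (-0.13), the checkpoint (-0.10) and the mitotic kinases (-0.07). Of the single genes, Kif14 and Plk1 lay below the central 95% of all genes, which ran from -0.66 to 0.62 at 24 h, and Cks2 lay above it. Among 1409 genes of olfactory, vomeronasal or trace amine receptors, used as a gauge of array noise, the SD of the 24 h genotype difference was 0.30. These receptor genes were taken without the level filter. Over all genes at or above the 60th percentile of level, where 38 of the 39 members lie, the SD was 0.27.

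**Figure D3:**
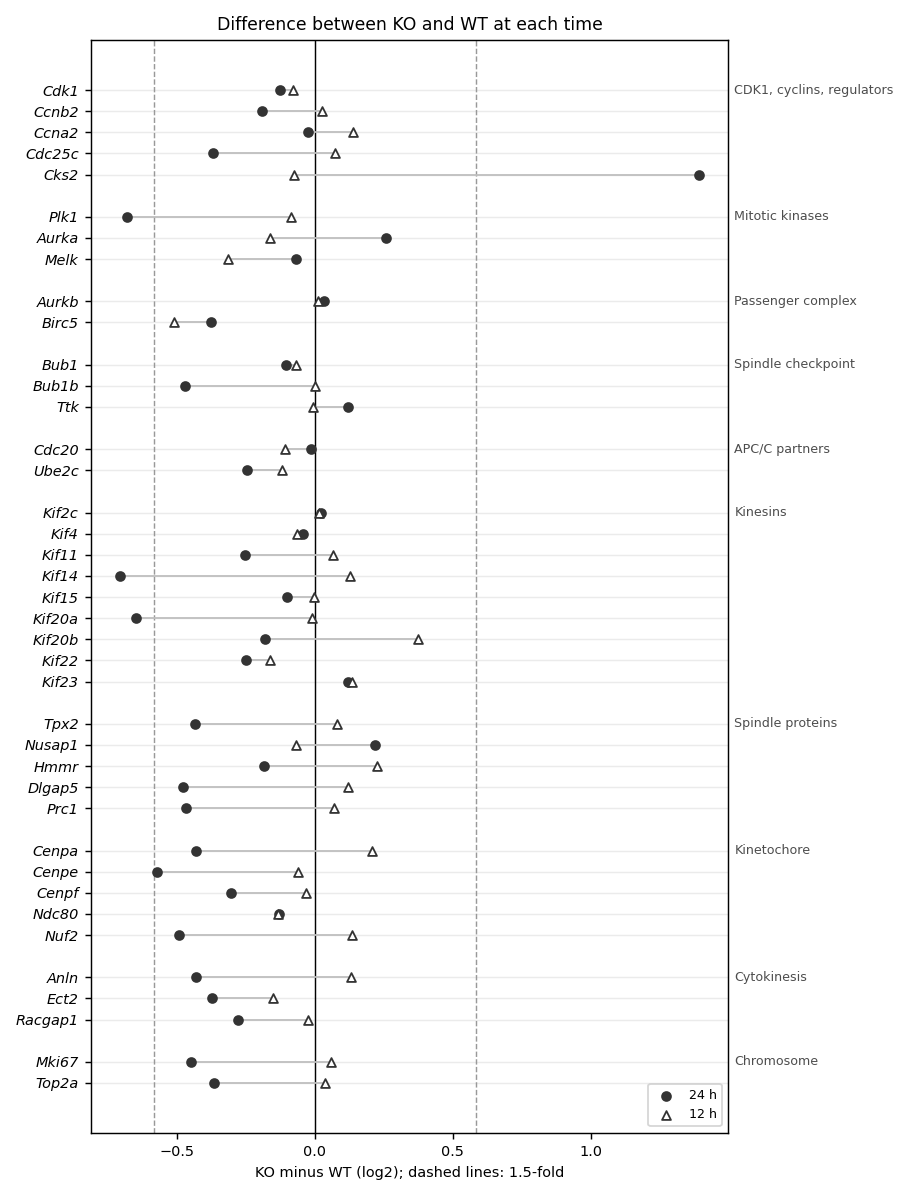
Difference between KO and WT (log2, x axis) at 24 h (filled circles) and 12 h (open triangles) for the 39 genes, with dashed lines at 1.5-fold. At 12 h the values lie around 0, at 24 h 32 of 39 lie left of 0, and Cks2 lies far to the right at 1.39.

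The genotype difference at 24 h and the time difference in KO share the KO 24 h array, so a value of that array enters both. The genotype differences at 24 h and 12 h share none, and across members they correlated at r = -0.16 (rho -0.25, n = 39), where all genes gave 0.11. For genotype, the same limma fit gave 0 genes past the adjusted threshold of 0.05 and 870 (6.51%) with an unadjusted p below it. Birc5 was the only one of the 39 members among them, with an adjusted p of 0.762 in limma.

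Of the kinase that starts mitosis and its partners, 5 of 6 genes were measured. Cdk1, the kinase itself, had levels of 6.11 in KO and 6.23 in WT at 24 h, and of 6.42 in KO and 6.49 in WT at 12 h, a small step between the times. Ccnb2, which encodes cyclin B2, had levels of 6.03 in KO and 6.22 in WT at 24 h, and of 7.48 in KO and 7.46 in WT at 12 h. The 24 h arrays were thus 2.74-fold lower in KO and 2.36-fold lower in WT, and 18 and 54 of the 13354 genes were as low or lower. Ccna2, for cyclin A2, which acts in S phase and G2, was at 6.50 in KO and 6.53 in WT at 24 h, against 7.14 in KO and 7.01 in WT at 12 h. Cdc25c encodes a phosphatase that removes the inhibitory phosphates of CDK1. It was the dimmest member, at 2.65 in KO and 3.02 in WT at 24 h, and 3.70 in KO and 3.63 in WT at 12 h, so its 24 h values lay near the level filter.

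Cks2 encodes a small subunit that docks CDK1 on phosphorylated substrates. It was 1 of 7 members higher in KO than in WT at 24 h, and the only one of them past the fold rule. Its levels were 6.42 in KO and 5.03 in WT at 24 h, and 6.10 in KO and 6.17 in WT at 12 h. The WT 24 h array stood apart as low, and the other arrays lay close together. The genotype difference was 1.39 at 24 h, or 2.63-fold, and 8 of the 13354 genes were as high or higher. The gene had 4 probe sets, of which 3 held identical values and are the ones given. The remaining set was dimmer, at 5.17 in KO and 4.38 in WT at 24 h and 5.11 in KO and 5.13 in WT at 12 h, a 24 h difference of 0.78. Cks1b, its paralog, showed the same order of arrays at 24 h with a smaller size, at 5.22 in KO and 4.73 in WT, and at 5.05 in KO and 5.14 in WT at 12 h. Whether probe sets of the pair share signal was not tested.

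Among the mitotic kinases Plk1 had one of the larger differences in the set. PLK1 drives entry into mitosis, centrosome maturation and cytokinesis. The Plk1 transcript was at 5.89 in KO and 6.57 in WT at 24 h, and at 7.38 in KO and 7.47 in WT at 12 h. Between the genotypes at 24 h it differed by -0.68 or 1.60-fold, with 302 genes as low or lower, and between the times it was 2.82-fold lower in KO and 1.86-fold lower in WT. Aurka, the kinase of spindle poles, was at 5.11 in KO and 4.85 in WT at 24 h and at 5.36 in KO and 5.53 in WT at 12 h, so at 24 h KO was not the lower. Melk, which encodes the maternal embryonic leucine zipper kinase, was nearly level in KO between the times, at 5.03 and 5.05, and at 5.10 and 5.36 in WT for 24 h and 12 h.

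The chromosomal passenger complex couples the kinase AURKB to the adaptor survivin, the product of Birc5, at centromeres and later at the midzone. Aurkb was at 6.09 in KO and 6.05 in WT at 24 h and at 6.49 in KO and 6.48 in WT at 12 h, lower at the later time by a like amount in both. Birc5 was lower in KO at both times, at 4.05 in KO and 4.43 in WT at 24 h and 4.24 in KO and 4.76 in WT at 12 h. Its 12 h difference of -0.51 was the lowest of the 39 members at that time.

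Spindle checkpoint kinases hold anaphase until every kinetochore is attached. Bub1b was at 5.47 in KO and 5.94 in WT at 24 h and at 6.16 in both at 12 h, so that the KO 24 h array stood lowest. Bub1 was at 5.38 in KO and 5.48 in WT at 24 h, against 5.75 in KO and 5.82 in WT at 12 h. Ttk, which encodes MPS1, varied least among these, from 5.19 to 5.44 over the 4 arrays. The genes for partners of the anaphase-promoting complex had similar time differences in both genotypes. Cdc20, its activator, was lower at 24 h by 0.90 in KO and 1.00 in WT on the log2 scale, and Ube2c, its ubiquitin-conjugating enzyme, by 0.91 and 0.79.

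All 9 kinesin genes were lower at 24 h in both genotypes, where 49.6% of all genes were in KO and 50.8% in WT. Of the kinesins, 6 were lower by at least 1.5-fold in KO and 5 in WT, against 3.24% and 4.01% of all genes. The largest difference belonged to Kif14, a motor of the central spindle that works with PRC1 and citron kinase in cytokinesis. Kif14 levels were 3.26 in KO and 3.97 in WT at 24 h, and 5.01 in KO and 4.88 in WT at 12 h. It was therefore 3.35-fold lower at 24 h in KO, where 8 of the 13354 genes were as low or lower, and 1.88-fold lower in WT. The genotype difference at 24 h was -0.71, or 1.63-fold, the lowest of the members.

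Kif20a, for the midzone motor MKLP2 that carries the passenger complex, was at 5.67 in KO and 6.32 in WT at 24 h, and at 6.95 in both at 12 h. Only the 24 h arrays differed between the genotypes, by -0.65. Kif20b, a motor needed for late cytokinesis, had the highest 12 h genotype difference of the members, 0.37, with levels of 6.46 in KO and 6.08 in WT at 12 h and of 5.61 in KO and 5.80 in WT at 24 h. Kif2c, the microtubule-depolymerising kinesin MCAK, was at 4.99 in KO and 4.96 in WT at 24 h and 5.85 in KO and 5.84 in WT at 12 h, with no gap between the genotypes at either time.

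Kif11, which encodes the bipolar spindle motor Eg5, was 1.90-fold lower at 24 h in KO and 1.53-fold lower in WT. Kif22, a chromosome-arm motor, had time differences of -0.81 in KO and -0.72 in WT. Those of Kif4, a chromosome motor that also acts at the midzone, were -0.54 and -0.56. Kif23, the MKLP1 subunit of centralspindlin, and Kif15, a spindle motor that can stand in for Eg5, had the smaller values, at -0.38 and -0.37 for Kif23 and -0.35 and -0.25 for Kif15. The kinesins thus covered a range of time differences rather than a common shift.

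Spindle proteins other than motors were lower by at least 1.5-fold at 24 h for 5 of 5 in KO and 2 of 5 in WT. Over all genes the shares were 3.24% in KO and 4.01% in WT. Prc1, which bundles the antiparallel microtubules of the midzone, was at 6.31 in KO and 6.78 in WT at 24 h, and at 7.44 in KO and 7.37 in WT at 12 h. Tpx2, the activator of AURKA, was at 6.35 in KO and 6.79 in WT at 24 h and at 7.25 in KO and 7.17 in WT at 12 h. Dlgap5, a protein of kinetochore fibres, was at 5.03 in KO and 5.50 in WT at 24 h and 6.06 in KO and 5.94 in WT at 12 h. For these 3 genes KO was slightly the higher at 12 h and the lower at 24 h. Hmmr, which encodes the spindle-associated hyaluronan receptor RHAMM, had 24 h levels of 4.58 in KO and 4.76 in WT and 12 h levels of 5.57 in KO and 5.34 in WT. Nusap1, a microtubule-binding protein of the spindle, ran the other way at 24 h, at 5.55 in KO and 5.33 in WT, against 6.31 in KO and 6.37 in WT at 12 h.

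**Figure D4:**
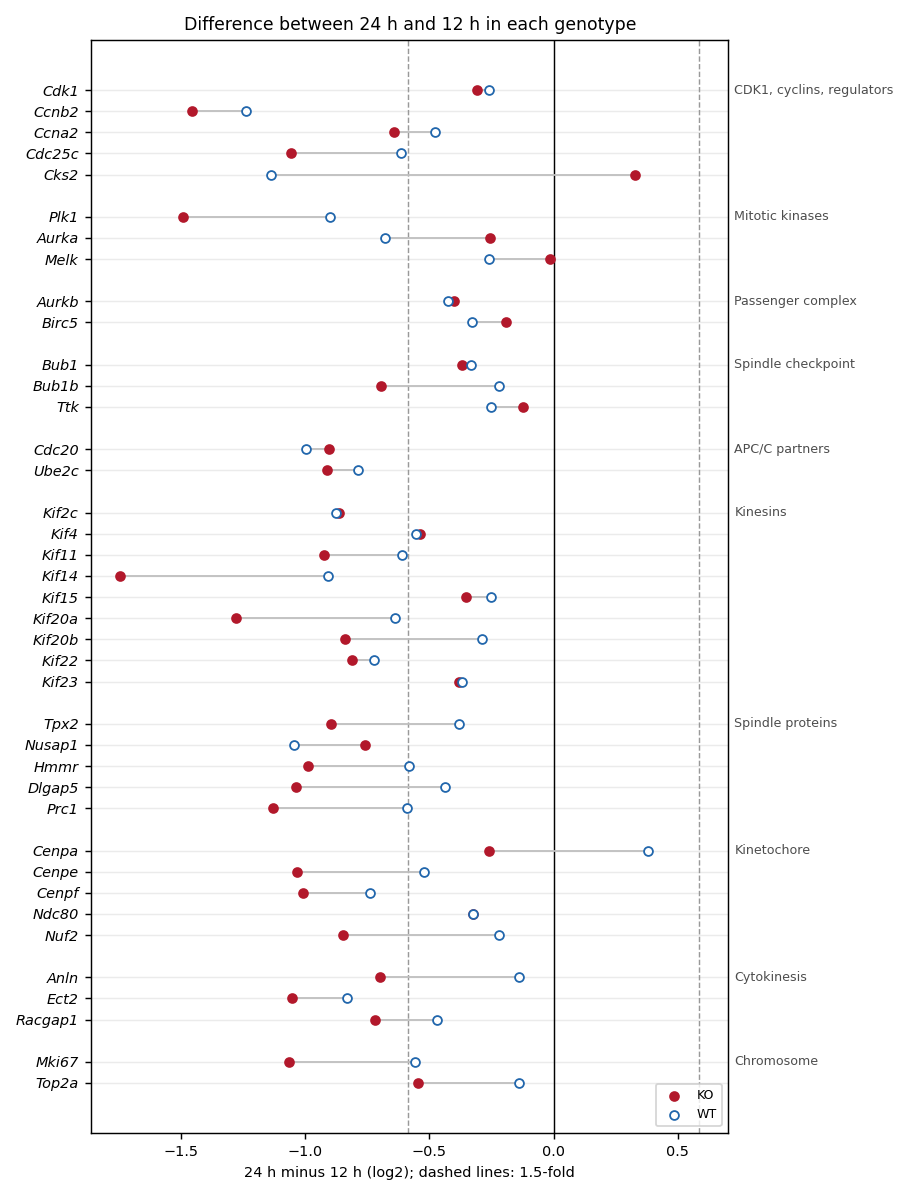
Difference between 24 h and 12 h (log2, x axis) in KO (filled) and WT (open) for the 39 genes, joined by a grey line, with dashed lines at 1.5-fold. Nearly all values lie left of 0, the KO value lies left of the WT value for 28 genes, and Cks2 in KO and Cenpa in WT are the values above 0.

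The kinetochore members were lower in KO than in WT at 24 h, 5 of 5 below 0, against 49% of all genes. None was past the fold rule, which 3.5% of all genes passed as lower. Cenpe, a motor that moves chromosomes to the metaphase plate, was at 5.95 in KO and 6.52 in WT at 24 h, and at 6.98 in KO and 7.05 in WT at 12 h. Its 24 h genotype difference, -0.57 or 1.49-fold, lay just short of the fold rule, and that of Kif20a, 1.57-fold, just past it. Nuf2 and Ndc80 encode partners in the NDC80 complex, which binds spindle microtubules. Nuf2 was at 5.55 in KO and 6.04 in WT at 24 h and 6.39 in KO and 6.26 in WT at 12 h, and Ndc80 differed by -0.13 between the genotypes at both times. Cenpf, a large protein of the outer kinetochore, was at 5.20 in KO and 5.50 in WT at 24 h and at 6.21 in KO and 6.24 in WT at 12 h. Cenpa, the histone H3 variant of centromeres, was the single member higher at 24 h in WT, with levels of 5.40 in KO and 5.83 in WT at 24 h, and 5.66 in KO and 5.45 in WT at 12 h.

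The cytokinesis genes were lower in KO than in WT at 24 h for 3 of 3, against 49% of all genes. All 3 were lower by at least 1.5-fold at 24 h than at 12 h in KO, against 3.24% of all genes. Ect2, the exchange factor that activates RhoA at the cleavage site, was at 6.18 in KO and 6.55 in WT at 24 h, and at 7.23 in KO and 7.38 in WT at 12 h. Anln, the scaffold anillin, was at 6.15 in KO and 6.58 in WT at 24 h and at 6.85 in KO and 6.72 in WT at 12 h. Racgap1, the other subunit of centralspindlin, was at 5.88 in KO and 6.16 in WT at 24 h, against 6.60 in KO and 6.63 in WT at 12 h.

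The proliferation marker Mki67, whose product coats mitotic chromosomes, was the brightest member. Its levels were 7.18 in KO and 7.62 in WT at 24 h, and 8.24 in KO and 8.18 in WT at 12 h, so the transcript was 2.09-fold lower at 24 h in KO and 1.47-fold lower in WT. Top2a, topoisomerase II alpha, which untangles sister chromatids, was at 7.03 in KO and 7.40 in WT at 24 h and at 7.58 in KO and 7.54 in WT at 12 h. For both genes the KO 24 h array was the lowest, and the WT 24 h array lay between it and the 12 h arrays.

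The other lists of cell division genes had smaller median time differences, with single genes as low as the members. Aspm, a spindle pole protein, differed by -1.47 in KO and -1.32 in WT between the times, and the WT value was below that of every member; it was chosen after its values were seen. Of 31 further genes of the spindle, chromosome condensation and cytokinesis, 28 were lower at 24 h in KO and 25 in WT, with medians of -0.33 and -0.27, where 49.6% and 50.8% of all genes were below 0. Past the fold rule were 7 in KO and 6 in WT, against 3.24% and 4.01% of all genes. Their genotype difference was below 0 for 24 of 31 at 24 h, against 49% of all genes, with a median of -0.15. None was past the fold rule, which 3.5% of all genes passed as lower and 2.97% as higher. Of 24 further kinetochore and checkpoint genes, 19 in KO and 17 in WT were lower at 24 h, with medians of -0.23 and -0.17, and 3 and 2 of them were past the fold rule as lower. Their genotype difference at 24 h was below 0 for 13 of 24, near the 49% of all genes, with a median of -0.03. Past the fold rule were 1 gene as higher and 1 as lower, against 2.97% and 3.5% of all genes. In that list Cenph, a constitutive centromere protein, had a genotype difference of 0.61 at 24 h and 0.58 at 12 h, and Cenpm, another, of -0.71 at 24 h and 0.36 at 12 h. Genes of mitotic entry and the anaphase-promoting complex had medians near 0 in all 4 comparisons, between -0.05 and 0.00 over 21 genes. Many of the 21 encode subunits of that complex. At 24 h 2 of them were past the fold rule as lower in KO, Mastl and Gtse1, against 3.24% of all genes. In WT it was 1, Bora, against 4.01%.

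The 20 transcription regulators of the cycle included Foxm1, Mybl2, the MuvB subunits, NF-Y and E2F genes. Their median time differences were -0.01 in KO and 0.01 in WT. In each genotype 10 of 20 were below 0, against 49.6% of all genes in KO and 50.8% in WT. Single regulators went either way. Foxm1 differed between the times by -0.31 in KO and -0.52 in WT, and Mybl2 by 0.27 in KO and 0.05 in WT. E2f2, chosen after its values were seen, differed by -0.42 in KO and -1.08 in WT. It was the only one of the 20 past the fold rule, in WT, where 4.01% of all genes were lower by that much. In the genotype comparisons 1 of the 20 was past the fold rule, E2f3, at 6.06 in KO and 5.44 in WT at 24 h and 5.95 in KO and 5.96 in WT at 12 h. At 24 h 2.97% of all genes passed the rule as higher. Among 14 CDK inhibitors and growth-arrest genes 2 were lower in KO at 24 h by at least 1.5-fold, where 3.5% of all genes were. Cdkn1a, which encodes the CDK inhibitor p21, was at 8.50 in KO and 9.10 in WT at 24 h, and at 8.69 in KO and 8.55 in WT at 12 h. Btg2, an antiproliferative gene, was at 6.47 in KO and 7.13 in WT at 24 h, against 6.21 in KO and 6.44 in WT at 12 h. The WT 24 h array was the highest of the 4 for both.

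DNA replication and G1 genes were not lower at 24 h as lists. Over 29 replication genes the median time difference was 0.11 in KO and 0.12 in WT, with 10 and 12 genes below 0, 3 and 0 past the fold rule as higher and none as lower. Of all genes, 49.6% in KO and 50.8% in WT were below 0. The shares past the rule were 3.05% and 4.73% as higher, and 3.24% and 4.01% as lower. Chaf1a, a chromatin assembly subunit, was the only replication gene past the fold rule between the genotypes, with a difference of -1.13 at 12 h and levels there of 3.91 in KO and 5.03 in WT. At 12 h 1.4% of all genes passed the rule as lower. All 8 measured G1 genes, which are cyclins, their kinases and Myc, had a higher level at 24 h in KO, and 6 of 8 in WT. Of all 13354 genes kept, 6725 were higher at 24 h in KO and 6559 in WT. Ccnd2, for cyclin D2, was at 6.07 in KO and 6.71 in WT at 24 h, and at 5.16 in KO and 5.65 in WT at 12 h. It was the one G1 gene of 8 past the fold rule between the genotypes, at 24 h, where 3.5% of all genes passed as lower. Between the times it was higher at 24 h in both genotypes.

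**Figure D5:**
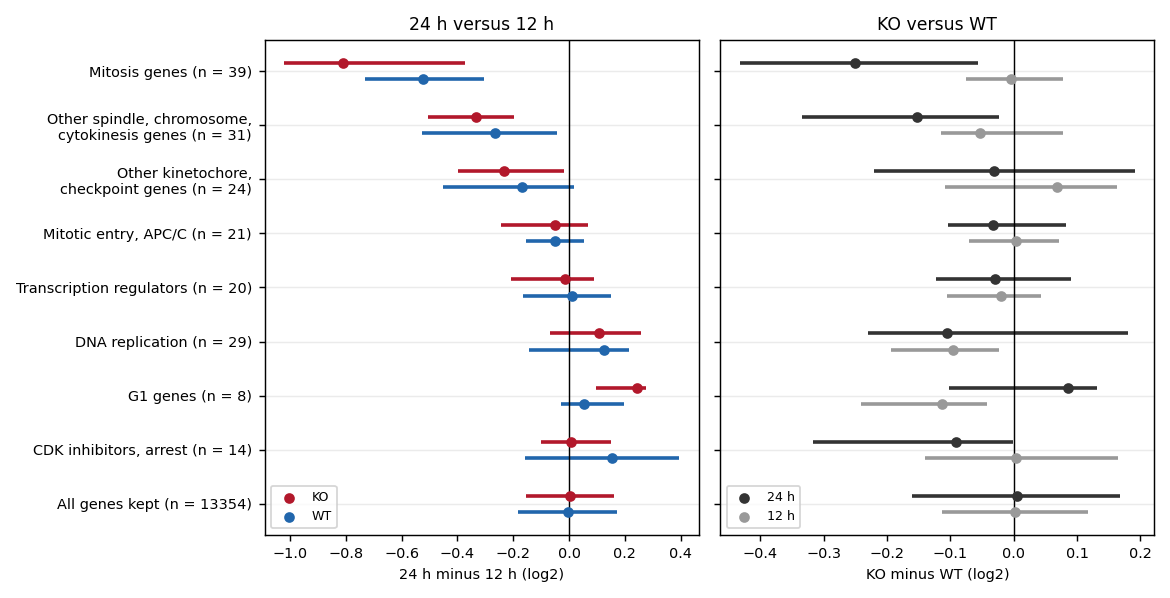
Median (point) and interquartile range (bar) over genes of the log2 difference between 24 h and 12 h in KO and WT (left) and between KO and WT at 24 h and 12 h (right), for the 39 mitosis genes, 7 other cell cycle lists and all 13354 genes. The mitosis genes have the lowest medians of the lists shown in both time comparisons and at 24 h between the genotypes. Marker lists of cell types are not shown, and macrophage and stromal markers had lower medians at 24 h between the genotypes.

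Stromal markers moved with the genotype beside these results, and with time in the opposite direction to the mitosis genes. Of 10 listed markers 7 passed the level filter. All 7 were lower in KO at both times, against 49% of all genes at 24 h and 49.4% at 12 h. The medians of these markers were -0.51 at 24 h and -0.47 at 12 h. Their median time difference was 0.51 in KO and 0.80 in WT. The fibroblast markers Lum, Thy1 and Fap had levels of 1.77 to 2.49, under the filter. Macrophage markers had a median genotype difference of -0.26 at 24 h and 0.02 at 12 h over 11 genes, close to the -0.25 and 0.00 of the mitosis genes. Of the 11, 8 were below 0 at 24 h, against 49% of all genes, and 3 were above. Cx3cr1 (-1.20) and Itgam (-0.72), 2 of 11, were past the fold rule as lower, against 3.5% of all genes. The part of stromal cells in the results on mitosis genes was not tested.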

How the data were processed

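The authors deposited 1 log2 value per probe set and array. RMA is the method named in the submitters' processing notes, without a version. Since RMA equalises the distributions of arrays, a change common to all transcripts would be removed. Each array carried a pool of 3 RNA samples, per the labels' protocols. The log2 scale was read from the values. The value table held 0 columns without a sample.

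Of 41345 probe sets, 23521 had 1 gene symbol in the platform annotation, 1814 several and 16010 none listed, and only the first were used. For a gene with several probe sets the brightest by mean was taken. Genes at or above the 40th percentile of the mean level over probe sets with 1 symbol (2.44) were kept. All 39 measured members and the genes of 7 cell cycle lists past 1.5-fold between the genotypes were named. Of the 9 marker lists only some genes were named. Hilpda, Cks1b, Foxm1, Mybl2, E2f2, Aspm, Mastl, Gtse1 and Bora were added outside that rule. The members and lists were chosen with earlier results of these data known.

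Differences were taken as KO minus WT and as 24 h minus 12 h. The limma fit (version 3.58.1, R 4.3.3) used lmFit and eBayes with genotype and time as terms and Benjamini-Hochberg adjustment. Its code was tested on simulated data with independent noise of the same SD in every gene. That setting differs from these data, where the error term is the change of the genotype difference. Promoter letters come from RefSeq windows on GRCm38.p6. The number of arrays limits the precision. The alternatives were other level filters, the mean over probe sets, a loess on level (span 0.3), quantile normalization, centring on the median, and fold rules of 1.3 and 2.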

Additional observations from a re-analysis of the deposited data

Results flagged for a closer look

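Cks2 and Kif14 had genotype differences of opposite sign at 24 h and 12 h, with the larger of the pair past 1.5-fold. For Cks2 the difference was 1.39 at 24 h and -0.07 at 12 h, a change of 1.47 on the log2 scale. For Kif14 it was -0.71 at 24 h and 0.13 at 12 h, a change of -0.83. Cks2 also had time differences of opposite sign, 0.33 in KO and -1.14 in WT, which is the same change of 1.47 seen from the other side. With 1 array per group the difference between these differences was not tested. In the WT 24 h array Cks2 was low on both distinct probe sets, and for Kif14 both 24 h arrays were below both 12 h arrays.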

How the results depend on the processing

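Of 133 values recomputed under the alternatives, 124 stayed within the tolerance (0.1 on the log2 scale for a difference, 1.5 times for a count) and none changed sign beyond it; these include every median over the 39 members, also without Cks2, an alternative chosen after seeing the data. Some of these values could not move. All 39 members passed the level filter, so its removal left their differences as they were. Only Cks2 had more than 1 probe set, so the mean over probe sets could change no other member. The counts moved with the fold rule. At 1.3-fold, 12 members were lower in KO at 24 h (3 at 1.5-fold), against 8.98% of all genes at 1.3-fold, 1 was lower in KO at 12 h (0 at 1.5-fold), against 4.88%, and 25 were lower at 24 h in WT (16 at 1.5-fold), against 10%. At 2-fold, 0 members were lower in KO at 24 h, against 0.419% of all genes, 11 were lower at 24 h in KO (25 at 1.5-fold), against 0.622%, and 3 in WT, against 0.824%. The 24 h genotype difference of Cks2 was 1.24 with the mean over its 4 probe sets, of which 3 hold identical values. The remaining set alone gave 0.78. The limma fit of time called 114 of the 9089 genes at or above the 60th percentile of level and 44 of 13354 after median centring, against 0 otherwise. The cause was not tested. No paired analysis was possible because each group had 1 array and the labels give no replicate numbers to block on; the limma fit compares the genotypes within each time through its term for time. Leaving out a replicate was not possible either, and the precision rests on single arrays.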

Other observations

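A pair of probe sets annotated to both Top2a and Taf1d, not used above, did not follow the single-symbol probe set of Top2a. They were at 5.98 and 7.32 in KO and 5.91 and 7.33 in WT at 24 h, and at 5.83 and 7.21 in KO and 6.10 and 7.57 in WT at 12 h. The probe set annotated to both Oip5 and Nusap1 was dim, at 3.54 in KO and 3.59 in WT at 24 h and at 3.52 in KO and 3.33 in WT at 12 h.

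Members with and without CHR or repeated CCAAT letters in the promoter window were set side by side after their values were seen. The 28 measured members with a match had a median time difference of -0.83 in KO and -0.56 in WT. The 5 without one (Bub1, Cks2, Melk, Nuf2 and Nusap1) had medians of -0.37 in KO and -0.33 in WT. By CCAAT letters, the 16 members with at least 2 matches had medians of -0.68 in KO and -0.63 in WT, and the 17 with fewer had -0.76 in KO and -0.37 in WT. None of these differences was tested.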
